A study of Mus musculus with 12 samples.

Results

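Circular RNAs (circRNAs) of cultured mouse spermatogonial stem cells (SSCs) were compared between RNA treated with RNase R and untreated RNA. The comparison uses 4 of the 12 libraries of the series, taken by their labels: 2 from RNase R-treated RNA and 2 from untreated RNA. All 4 came from male F1 mice of DBA/2 and C57BL6 aged 5 days postpartum, and no genetic alteration or drug is labelled in either group. The labels call the 2 libraries of a group replicates without saying that they came from separate cultures, so p-values measure only the spread between these libraries, which may be technical. Each library was deposited as a list of circRNAs with their genomic ends (mm9), their type (exon, intron or intergenic) and the number of reads across the back-splice junction. The 4 lists held 29643 different circRNAs, of which 21646 were exon type, 5080 intron type and 2917 intergenic. SSCs are the cells at the base of spermatogenesis that renew themselves and feed the production of sperm. The SSC lists hold no gene levels, so the label was set against the hosts of circRNAs. Of 33 germ stem cell genes with a locus, 21 held a listed circRNA, among them Gfra1, the GDNF co-receptor, and Zbtb16, a regulator of SSC renewal. Of 25 fibroblast and feeder cell genes it was 2, of 14 Sertoli cell genes 4 and of 13 meiotic and spermatid genes 3. The germ stem cell count was 15 and 21 in the treated and 7 and 9 in the untreated libraries. Of the Sertoli loci, Dmrt1 is also in the germ stem cell list, and Wt1 and Kitl had 3 and 2 reads, in treated replicate 2 alone. The share of all loci with a listed circRNA was not computed, so these counts do not test the label.

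A circRNA forms when the spliceosome joins the end of a downstream exon to the start of an upstream one (back-splicing), which closes the exons between them into a ring. A ring has no free end. RNase R is an exonuclease that digests linear RNA from its 3′ end, so it is widely used before sequencing to enrich rings and to test whether a back-splice read comes from one. Since a ring can be digested once it is nicked, and some linear RNAs resist the enzyme, the change in a junction's share after treatment is a measurement of that junction and not a proof of its shape.

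The back-splice junctions that the results turn on are shown as 30 bases each, the last 15 bases of the last exon in lower case followed by the first 15 bases of the first exon in capitals, written 5′ to 3′ on the strand of the gene. Exons were read from GENCODE M21 (GRCm38) by an exon pair of the host gene with the same genomic span as the listed circRNA, and the coordinates are those of the lists (mm9). The most-read junction of Cnot6l (a subunit of the CCR4-NOT deadenylase) joined the end of exon 4 to the start of exon 2 (chr5:96557962-96563151, minus strand, 395 bases spliced), and a longer ring from the same start ended at exon 11 (chr5:96508952-96563151, 1450 bases).
Cnot6l exons 2 to 4: ctctaggtttaacagACTAATAGGGATGCC
Cnot6l exons 2 to 11: acctttgatttcaaaACTAATAGGGATGCC
The pair from C330019G07Rik (Prr14l in GENCODE) shared its last exon and differed in the first, with 351 bases spliced for exons 7 to 9 (chr5:33162515-33164787, minus strand) and 5072 bases for exons 4 to 9 (chr5:33162515-33178337).
Prr14l exons 7 to 9: gcctcggcccaaaagCCACACCACCATACC
Prr14l exons 4 to 9: gcctcggcccaaaagGATCTCCTCCCGAGA
The pair from Trim24 (a transcriptional co-regulator with a RING domain) shared exon 2 as its first exon, ending at exon 5 (chr6:37853533-37869490, plus strand, 517 bases) or at exon 7 (chr6:37853533-37881500, 779 bases).
Trim24 exons 2 to 5: tcagatccaaaatagTTGGAGTCATTCGAT
Trim24 exons 2 to 7: tacagcaagcggctgTTGGAGTCATTCGAT
Junctions with contrasting responses came from Map1s (chr8:73434844-73436552, plus strand, 329 bases), which took a larger share after treatment, and from Tcf20 (chr15:82655661-82687714, minus strand, 5866 bases), Zfml (Zfp638 in GENCODE, chr6:83884943-83922277, plus strand, 1976 bases) and Strn3 (chr12:52748981-52762700, minus strand, 703 bases), which took a smaller one.
Map1s exons 2 to 4: ctgggggacaaagagGTGTTCGCTCCTGGG
Tcf20 exons 2 to 3: gtgccattgacgcagGAGGGCTGCTGGCCT
Zfp638 exons 3 to 21: actaggaaaaggaagGACTGGATTCAGCAT
Strn3 exons 2 to 7: atggtacagaatgggGCACGGATTGCATTT

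The treated libraries listed 12266 and 25415 circRNAs (replicates 1 and 2) on 263855 and 560991 junction reads. The untreated libraries listed 2601 and 3578 circRNAs on 21754 and 30400 junction reads. Every treated library was thus deeper in junction reads than every untreated one, and the treated libraries differed from each other 2.13-fold. Thinned to 21754 reads, the number of circRNAs expected with at least 2 reads was 3056 and 2848 treated, against 2590 and 2970 untreated, so the longer treated lists went with their larger number of reads. Few entries had 1 read (6, 28, 11 and 9), so a circRNA that a list lacks had fewer reads than could be listed and is called unlisted, not absent. The comparisons below therefore use shares of each library's own junction reads. With 2 libraries against 2, a two-sided exact permutation test of a single share cannot go below p = 0.333, so for shares the values of all 4 libraries are given with whether the groups overlapped, and intervals are exact binomial ones at 95% that cover counting error only.

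Exon type circRNAs held a larger share of the junction reads after RNase R, and intergenic ones a smaller share. Exon type reads made up 81.4% and 82.9% of the treated libraries, against 70.7% and 76.4% of the untreated ones. Intergenic reads made up 10.6% (95% interval 10.5 to 10.7) and 8.82% (8.75 to 8.90) treated, against 22.1% (21.6 to 22.7) and 16.3% (15.9 to 16.7) untreated. Neither type overlapped between the groups, and the untreated mean of the intergenic share was 1.98-fold the treated one. Among circRNAs in all 4 lists the differences were far smaller: the intergenic share was 12.1% and 10.8% treated against 13.6% and 11.2% untreated, where the groups overlapped, and the treated minus untreated difference of means went from -9.48 to -0.92 percentage points for intergenic and from 8.58 to 1.67 for exon type reads. Intron type reads differed by less, at 8.03% and 8.28% treated against 7.18% and 7.34% untreated, where the groups did not overlap. That difference was reversed among circRNAs in all 4 lists. By number of listed circRNAs in place of reads, the exon type share was not larger: it averaged 76.4% of the treated lists and 76.8% of the untreated ones. The intron type share averaged 15.6% of the treated lists and 9.53% of the untreated ones.

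The intergenic difference lay in circRNAs that overlapped gene loci without lying inside one. Those made up 5.42% and 3.73% of treated reads, against 16.8% and 10.5% of untreated reads. Intergenic circRNAs that touched no locus made up 5.17% and 5.09% treated against 5.35% and 5.79% untreated, which is a small difference beside the other. By span, intergenic circRNAs of 100000 bases or more had 10.3% and 3.81% untreated against 2.14% and 0.513% treated, and those of 20000 to under 50000 bases had 3.50% and 4.02% untreated against 1.44% and 1.45% treated. Intergenic circRNAs of 500 to under 1000 bases went the other way, with 0.565% and 0.688% untreated against 0.992% and 0.885% treated.

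**Figure D1:**
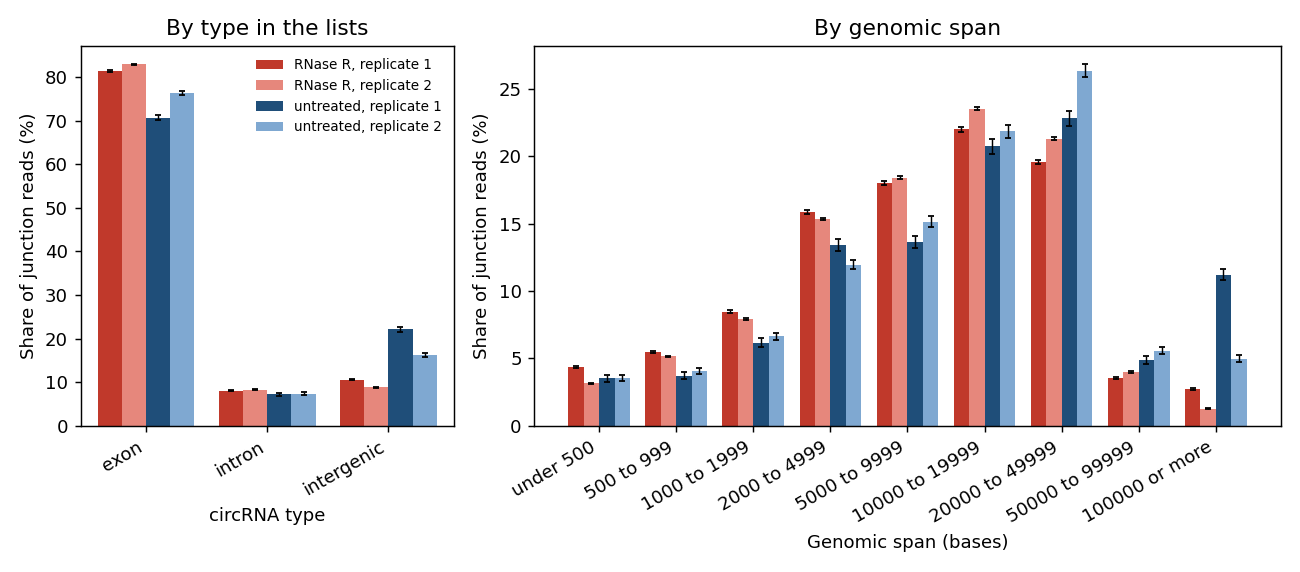
Share of each library's junction reads (%) by circRNA type (left) and by genomic span class in bases (right), with 1 bar per library and exact 95% binomial intervals. Both untreated libraries (blue) stand above both treated ones (red) for the intergenic type and for spans of 100000 bases or more.

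Over all types, circRNAs with a short genomic span held a larger share in both treated libraries and those with the longest span a smaller one. Spans of 1000 to under 10000 bases held 42.4% and 41.6% of treated reads and 33.2% and 33.7% of untreated reads. Spans of 100000 bases or more held 2.72% and 1.26% treated and 11.2% and 4.98% untreated. The untreated libraries lay far apart from each other in the longest class, and the difference of means there, -6.10 percentage points, became -2.99 without untreated replicate 1 and -9.21 without untreated replicate 2. It was -1.74 among circRNAs in all 4 lists. The span that divided the reads equally (the read-weighted median) was 9167 and 10027 bases treated and 14224 and 13654 bases untreated. Among exon type circRNAs alone, the class of 100000 bases or more held 0.585% and 0.746% of exon type reads treated and 0.722% and 0.848% untreated, so that there the groups overlapped.

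A cluster of 25 intergenic junctions on chromosome 12 stood apart from the rest, with starts between 70260326 and 70260491, ends between 70462259 and 70462424 and spans of 201793 to 202003 bases. It had 4462 and 260 reads treated and 1344 and 25 untreated, which is 1.69%, 0.0463%, 6.18% and 0.0822% of the libraries. Its share was high in replicate 1 of both groups and low in replicate 2 of both. The junctions ran across Lrr1, Mgat2, Klhdc1 and Klhdc2, among others. In RefSeq's GRCm38.p6 table the genes Rn7s1 and Rn7s2, which encode the 7SL RNA of the signal recognition particle and have the same length, start 201888 bases apart and neighbour the same genes. Whether those gene copies have a part in these junctions was not tested. Without the cluster, the intergenic share was 9.06% and 8.78% treated against 17.0% and 16.2% untreated. Spans of 100000 bases or more then held 1.04% and 1.21% treated against 5.35% and 4.90% untreated, a difference of means of -3.99 percentage points in which the untreated libraries lay close together.

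The annotated spliced length of the ring separated the groups more sharply than its genomic span. It sums all exons between the ends, in the fitting transcript of greatest total exon length. The inside of the ring was not measured. Of the exon type circRNAs inside 1 host locus, 91.1% (19615) matched exactly 1 exon pair of the host gene in GENCODE, and these held between 91.9% and 94.5% of each library's exon type reads. Rings of 2000 bases or more held 0.383% (0.357 to 0.411) and 0.661% (0.637 to 0.686) of the matched reads treated, against 4.31% (3.98 to 4.66) and 3.85% (3.60 to 4.12) untreated. The untreated mean was 7.82-fold the treated one. Rings of 1000 bases or more held 7.05% and 9.95% treated and 19.3% and 19.7% untreated, a difference of means of -10.98 percentage points that lay between -9.53 and -12.43 with any 1 library left out. Rings under 400 bases held 39.9% and 32.1% treated and 25.9% and 24.9% untreated. The treated libraries differed from each other in the short class, and the difference of 10.6 points in means became 6.71 without treated replicate 1. The read-weighted median length was 454 and 494 bases treated and 567 and 568 bases untreated.

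**Figure D2:**
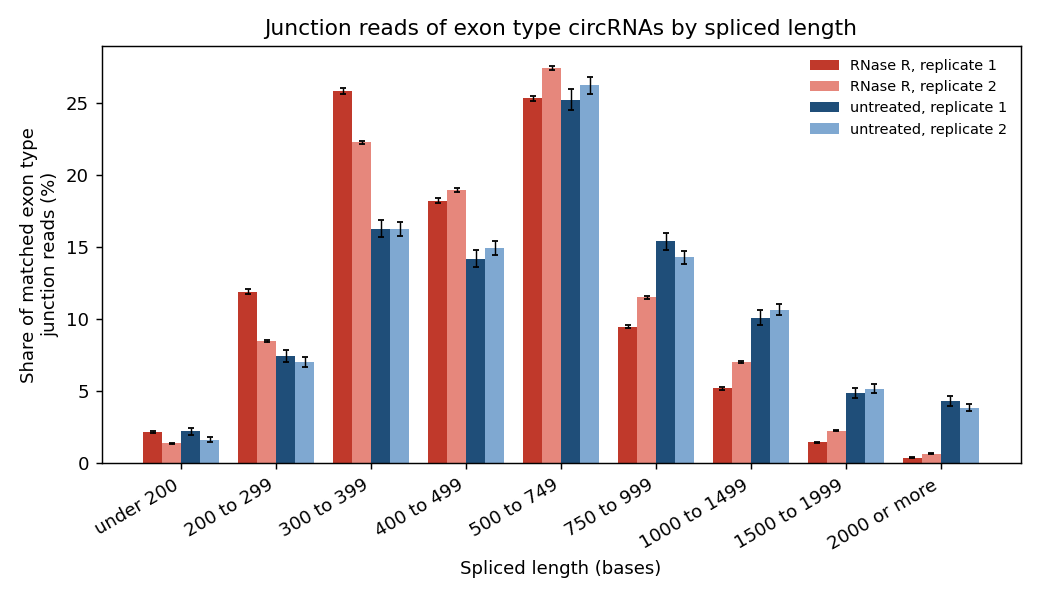
Share of the matched exon type junction reads (%) of each library by spliced length of the circRNA in bases, with 1 bar per library and exact 95% binomial intervals. Treated libraries (red) stand above untreated ones (blue) from 200 to under 500 bases and below them in every class from 750 bases up.

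The number of exons moved with length. Rings of 10 or more exons held 1.87% and 2.80% of matched reads treated and 5.90% and 6.75% untreated, and rings of 3 exons held 28.0% and 25.4% treated and 21.9% and 20.4% untreated. The difference by length was also present within classes of exon number: rings of a single exon of 1000 bases or more held 1.07% and 1.36% treated against 2.53% and 2.38% untreated, and rings of 2 to 4 exons of that length 1.55% and 2.11% against 4.71% and 4.57%. Rings made of coding exons alone held 77.7% and 77.0% treated and 73.2% and 73.0% untreated.

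The same could be followed in the 1195 circRNAs listed in all 4 libraries, where no value was unlisted. For each, the mean treated share was divided by the mean untreated share. The share was higher in both treated libraries than in both untreated ones for 204 of them (17.1%) and lower for 490 (41.0%), with a median log2 ratio of -0.34. The untreated libraries had the fewest reads, so circRNAs high in those were more likely to enter the set. It held 54.0% and 50.7% of treated and 65.4% and 62.5% of untreated reads. In a two-sided exact permutation test such a separation has p = 0.333 at the least. The 2 counts and the median therefore support no direction. Of the 1195, 83.6% were exon type with a spliced length. The median log2 ratio was 0.19 for 182 rings of 300 to under 400 bases and 0.10 for 163 rings of 400 to under 500 bases. It was -0.61 for 143 rings of 750 to under 1000 bases, -1.43 for 101 rings of 1000 to under 1500 bases, -1.59 for 33 rings of 1500 to under 2000 bases and -3.01 for 18 rings of 2000 bases or more. Of those 18, 17 were lower in both treated libraries and 0 higher. The shortest rings broke the order: 19 rings under 200 bases had a median of -0.86. Across those exon type rings, which share libraries and are not independent replicates, Spearman's rho of the log2 ratio was -0.44 with spliced length, -0.23 with the number of exons and -0.15 with genomic span. Taken for each treated library against each untreated one, rho with spliced length lay between -0.27 and -0.48.

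**Figure D3:**
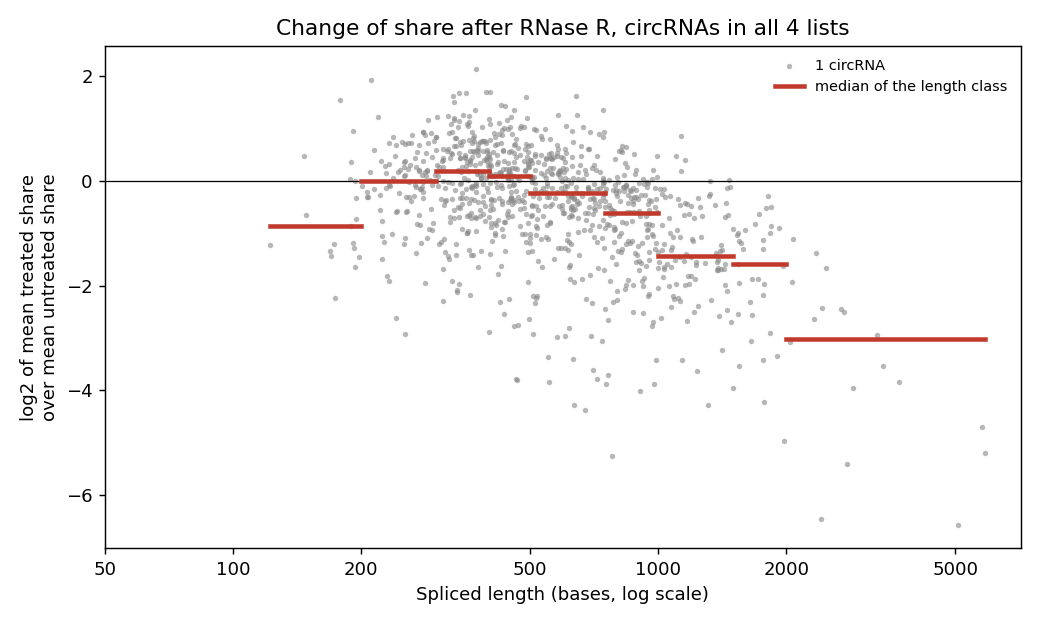
Log2 of the mean treated share over the mean untreated share against spliced length in bases (log scale) for the matched circRNAs in all 4 lists, 1 grey point each, with the median of each length class as a red line. The medians lie near 0 from 200 to under 500 bases and reach -3.01 at 2000 bases or more.

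Rings of different length from the same host locus share their gene. In 181 host loci with at least 2 matched circRNAs in all 4 lists, the longest ring was compared with the shortest. The longer ring had the lower share ratio in 128 loci and the higher in 53. Where the longer ring was at least 2 times the length of the shorter, the longer had the lower ratio in 56 of 68 loci. Where the longer ring had at least 1000 bases and the shorter under 1000, it was 44 of 50.

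The examples that follow were chosen after their values were seen. From C330019G07Rik, the 5072-base ring had 5 and 15 reads treated and 49 and 64 untreated, and the 351-base ring 83 and 152 treated and 5 and 6 untreated. The longer ring thus made up 5.7% and 9.0% of the pair's reads treated and 90.7% and 91.4% untreated. From Trim24, the 779-base ring had 25 and 21 reads treated and 64 and 63 untreated. The 517-base ring had 63 and 142 treated and 18 and 45 untreated, so the longer ring made up 78.0% and 58.3% of the pair untreated and 28.4% and 12.9% treated. From Ttc3, a gene of the Down syndrome region in human that encodes a ubiquitin ligase, the 1308-base ring had 4 and 11 reads treated and 9 and 8 untreated. Its 452-base partner had 222 and 570 treated and 28 and 37 untreated.

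Other pairs differed less between the groups. The 1450-base ring of Cnot6l made up 1.0% and 1.1% of its pair treated and 5.9% and 5.2% untreated. From Kdm4b, a histone lysine demethylase, the 1691-base ring made up 81.5% and 85.5% of its pair treated and 87.2% and 87.6% untreated. From Igf1r, the receptor of insulin-like growth factor, the 1762-base ring made up 3.5% and 1.9% treated and 2.5% and 4.4% untreated, where the groups overlapped. The pair from Glis3, a zinc finger transcription factor, overlapped too, at 74.3% and 74.2% treated and 93.9% and 73.8% untreated.

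**Figure D4:**
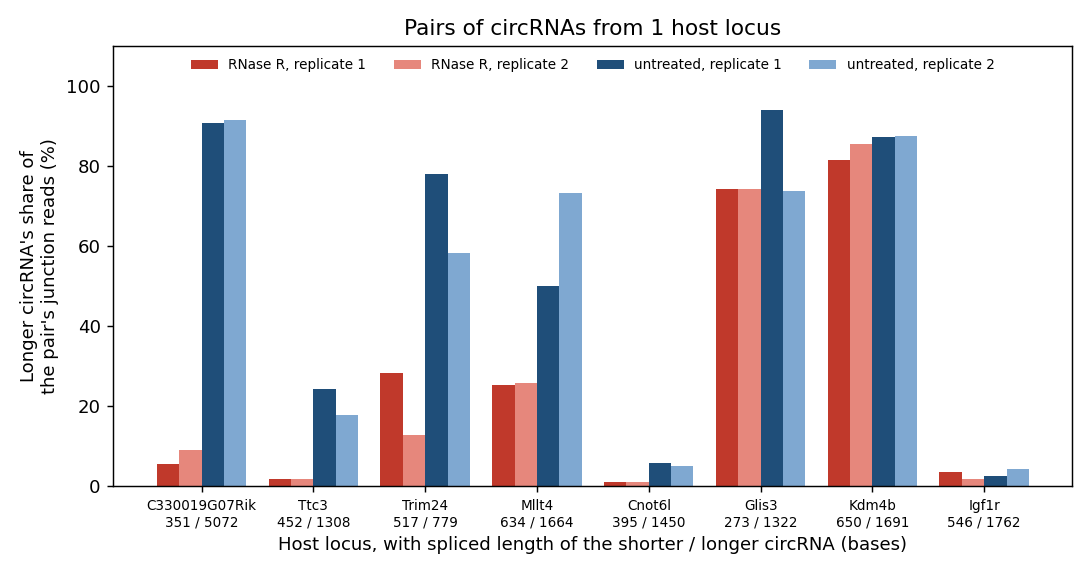
Share (%) of the longer circRNA in the junction reads of a pair from the same host locus, 1 bar per library, with both spliced lengths in bases under each locus. The longer ring of C330019G07Rik makes up over 90% of its pair in both untreated libraries and under 10% in both treated ones, while the bars of Glis3 and Igf1r overlap between the groups.

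Single circRNAs were tested with edgeR's quasi-likelihood test, with p-values adjusted over all 9976 circRNAs in at least 2 lists. After RNase R, 53 circRNAs were called higher (0.531% of those tested) and 132 lower (1.32%). Of the 132 called lower, 57 were intergenic, which is 43.2% against 7.0% of all those tested, and 26 spanned 100000 bases or more. The median spliced length was 395 bases among the matched called higher, 1030.5 among the matched called lower and 497 among all matched circRNAs tested. Of the circRNAs called lower, 91 were unlisted in both treated libraries, and of those called higher, 38 were unlisted in both untreated ones. A circRNA unlisted in 1 group could enter the test only through the other, so these counts describe the calls and support no direction. The counts also moved with single libraries: without treated replicate 1 or 2, 9 and 26 were called higher and 66 and 59 lower, and without untreated replicate 1 or 2, 319 and 316 were called higher and 100 and 143 lower.

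The scaling factors of that fit (TMM) placed its log2 fold changes 0.90 above the ratios of shares, and all 53 and all 132 nevertheless had a mean share on the called side. A further fit took only the 1195 circRNAs in all 4 lists, with factors that moved the fold changes by 0.06. Its fold changes are relative to the reads of those 1195, which held 54.0% and 50.7% of treated and 65.4% and 62.5% of untreated reads. They lie above the ratios of whole-library shares, with a median log2 fold change of 0.007 against a median log2 ratio of -0.34. In that fit 26 were called higher (2.18%) and 124 lower (10.4%). There 13 of 18 rings of 2000 bases or more were called lower, 13 of 33 rings of 1500 to under 2000 bases and 22 of 101 rings of 1000 to under 1500 bases. None of those 3 classes held a call in the other direction. Of 182 rings of 300 to under 400 bases, 10 were called higher and 3 lower.

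The most-read circRNA of the treated libraries was an intergenic one at chr3:51111972-51129957, which overlapped Elf2, the gene of an ETS transcription factor, and reached beyond its locus. It had 3031 and 5346 reads treated and 199 and 197 untreated, ranking 1, 1, 1 and 7 in the libraries. Its share was 1.15% and 0.953% treated and 0.915% and 0.648% untreated, higher in both treated libraries, and it was called in the fit of circRNAs in all 4 lists (log2 fold change 0.79, SE 0.20, adjusted p = 0.0064). The circRNA at chr7:114428296-114429244, between Rbmxl2 and Syt9, had the span of exons 2 to 3 of the long non-coding RNA Platr28 and 274 spliced bases. It ranked 2 and 2 treated and 19 and 11 untreated, with 0.825% and 0.710% of treated reads and 0.501% and 0.579% of untreated reads (log2 fold change 0.85, SE 0.22, adjusted p = 0.0080 in the same fit). The short Cnot6l ring had 1926 and 3977 reads treated and 111 and 181 untreated, with a rank of 3 in both treated libraries and 17 and 9 in the untreated ones (log2 fold change 0.72, SE 0.22, adjusted p = 0.027).

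The X-linked circRNA at chrX:64046008-64049747 kept a high rank throughout. It lay between the microRNA genes Mir471 and Mir741, with 1732 and 2810 reads treated and 191 and 267 untreated. Its share was 0.656% and 0.501% treated and 0.878% and 0.878% untreated, lower in both treated libraries, but it was not called (adjusted p = 0.47 in the fit of circRNAs in all 4 lists). Rings of Epb4.1l5, a band 4.1 protein of cell junctions, and of Pphln1 ranked 4 and 5 in treated replicate 2 and were not called. The ring of Epb4.1l5 held 0.504% and 0.691% treated and 0.575% and 0.678% untreated, so its groups overlapped.

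Among circRNAs in all 4 lists, the clearest rise was that of the 329-base ring of Mtap1s (Map1s), a microtubule-associated protein. It had 1500 and 1558 reads treated and 34 and 36 untreated, which is 0.568% and 0.278% of treated and 0.156% and 0.118% of untreated reads. The groups did not overlap, and its log2 fold change was 1.99 (SE 0.35, adjusted p = 0.000136). Called rises of entries unlisted in both untreated libraries included those of Spopl, an adaptor of cullin ubiquitin ligases (168 and 552 reads treated), and of Adam10, a membrane protease (161 and 450). The others named were Wars, the tryptophanyl-tRNA synthetase (180 and 309), and an intergenic circRNA at chr10:82870537-82872179 (210 and 683). Since those 4 entries were unlisted untreated, no fold change is given for them. The Wars entry had a neighbour with both ends within 5 bases, also of 3 exons and 529 spliced bases. That neighbour was in all 4 lists, with a log2 share ratio of 0.857. The Wars rise may thus be that of a split entry, and it does not show a ring without untreated reads.

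The steepest fall among circRNAs in all 4 lists was that of the intergenic circRNA at chr17:35400784-35562322, whose 161539 bases ran across H2-D1, H2-Q1, H2-Q2 and other class I genes of the major histocompatibility complex. It had 8 and 5 reads treated and 87 and 63 untreated (log2 fold change -7.04, SE 0.60, adjusted p = 1.318e-09). Those are related genes of a family, and whether the reads of this circRNA were placed correctly among them was not tested. The 508-base ring of Stag1, a cohesin subunit, had 228 and 396 reads treated and 91 and 236 untreated, and its rank was 142 and 179 treated and 28 and 4 untreated. It was called lower (log2 fold change -2.60, SE 0.34, adjusted p = 1.969e-06). The ring of Ankib1, a ubiquitin ligase gene, went from ranks 4 and 5 untreated to 78 and 40 treated, with 0.667% and 0.773% of untreated and 0.147% and 0.219% of treated reads (log2 fold change -1.64, SE 0.28, adjusted p = 9.746e-05). A ring of Cwf19l2 went from ranks 9 and 3 to 44 and 35, with 0.575% and 0.865% untreated and 0.197% and 0.229% treated (log2 fold change -1.42, SE 0.28, adjusted p = 0.000496).

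Called falls that no treated library listed were a 179-base intron type circRNA of Epha5, an ephrin receptor (32 and 94 reads untreated), an intergenic one at chr7:31711855-31731688 across Hamp and Usf2 (39 and 38), the Strn3 ring (18 and 50), whose host encodes a striatin, and a 566-base ring of Rnf219, a ubiquitin ligase gene (23 and 35). Reads of 1 library also made high ranks. A circRNA at chr8:113513374-113544621 across Ddx19a and Ddx19b, neighbouring RNA helicase genes, had 463 reads and rank 1 in untreated replicate 2, was unlisted in untreated replicate 1 and had 28 and 45 reads treated. One of Psmd1, a proteasome subunit, had 146 reads and rank 3 in untreated replicate 1 and was unlisted in the other 3 libraries.

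Near-identical ends split some rings into several entries. Both ends lay within 5 bases of another circRNA's for 480 circRNAs in 238 groups. The ring of Stx6, a syntaxin of endosome traffic, was listed with 1772, 2517, 100 and 135 reads, and treated replicate 2 had a further entry that ended 4 bases on. The Wars entry called higher was another such case, with a near-identical neighbour in all 4 lists. With such entries merged, 62 circRNAs were called higher and 139 lower.

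Summed over each host locus, 10 of 4020 loci in at least 2 libraries were called higher (0.249%) and 32 lower (0.796%), from the same edgeR test adjusted over all loci. Among the 963 loci in all 4 libraries fitted alone, 19 were higher (1.97%) and 64 lower (6.65%). Counts of host calls moved with single libraries too, to 3 and 9 higher without treated replicate 1 or 2, and to 102 and 156 higher and 65 and 60 lower without untreated replicate 1 or 2. Tcf20, a transcriptional co-regulator, had the smallest p, with 32 and 87 reads treated and 101 and 147 untreated. It held 0.0121% and 0.0155% of treated reads and 0.464% and 0.484% of untreated reads, and its main rings had 5772 and 5866 spliced bases (log2 fold change -4.81, SE 0.34, adjusted p = 0.000202). Zfml, a nuclear matrix zinc finger protein gene whose main ring has 19 exons, had 0.0470% and 0.0435% treated and 0.460% and 0.441% untreated (log2 fold change -3.05, SE 0.29, adjusted p = 0.000998). Trim24 had 0.0580% and 0.0512% treated and 0.409% and 0.477% untreated, and Ttc3 had 0.310% and 0.377% treated and 1.04% and 1.04% untreated, and both were called lower (adjusted p = 0.0021 and 0.023).

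The germline genes Rnf17, a tudor protein of germ cell granules, and Asz1, a protein of the piRNA pathway, were among the 32 and were named after their values were seen. Rnf17 had 56 and 92 reads treated and 36 and 26 untreated (log2 fold change -2.46, SE 0.48, adjusted p = 0.048). Asz1 had 115 and 146 treated and 46 and 45 untreated (log2 fold change -2.11, SE 0.42, adjusted p = 0.049).

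The loci with the highest mean share were Glis3, Pphln1, Ep400, Epb4.1l5, Rasa2, Cnot6l, Ttc3, Stx6, Cbfb and Zfp148. Of these 10, Ttc3 was called lower, Stx6 was called higher and 8 were not called. In the fit of loci in all 4 libraries Ep400 was called lower too. Glis3 held 0.850% and 1.01% treated and 0.984% and 0.924% untreated, where the groups overlapped. Ep400, a chromatin remodeller, held 0.532% and 0.562% treated and 1.21% and 0.944% untreated without passing the test over all loci (adjusted p = 0.17), and was called among the loci in all 4 libraries (log2 fold change -0.96, SE 0.25, adjusted p = 0.025). Stx6 held 0.744% and 1.06% treated and 0.478% and 0.457% untreated (log2 fold change 1.22, SE 0.24, adjusted p = 0.044). Of the other loci called higher, Shq1, a factor of small nucleolar ribonucleoprotein assembly, was listed in all 4 libraries, with 0.259% and 0.237% treated and 0.0873% and 0.0855% untreated (log2 fold change 1.78, SE 0.32, adjusted p = 0.044). In the fit over all loci, the fold changes of Stx6, Shq1 and Tcf20 lay above their log2 ratios of mean shares. Those ratios were 0.95 for Stx6, 1.52 for Shq1 and -5.10 for Tcf20.

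Known circRNA hosts held a smaller share in both treated libraries. A list of 24 loci known for abundant rings in other tissues held 0.901% and 1.02% of treated reads and 1.94% and 2.12% of untreated reads. Of its 18 loci tested, 4 were called lower, Ankib1, Arhgap5, Tulp4 and Strn3, and 0 were called higher at an adjusted p under 0.05, where 0.796% of all loci tested were called lower and 0.249% higher. Not all of its members moved that way: Homer1, a synaptic scaffold gene, held 0.224% and 0.262% treated and 0.262% and 0.322% untreated, and Cdyl, a chromatin reader, held 0.152% and 0.144% treated and 0.0782% and 0.0987% untreated, and neither was called. Of the 4 called lower, Tulp4 had mainly intron type reads untreated and was not called with exon type circRNAs only. This list, like the others, was chosen with earlier results of these data known. Of 16 germ stem cell loci tested, and of 13 loci of circRNA formation factors, edgeR called 0 in either direction, and of 42 loci of chromatin regulators it called 1 lower, Nsd1. Over all loci tested 0.796% were called lower and 0.249% higher, and nothing is read from counts this low. Germ stem cell loci held 0.598% and 0.699% of treated and 0.680% and 0.813% of untreated reads, where the groups overlapped. Gfra1 had 320 and 618 reads treated and 16 and 35 untreated, and Zbtb16 had 305 and 967 treated and 45 and 86 untreated.

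Rpph1, the RNA of RNase P, had 282 and 887 treated and 11 and 0 untreated and was not called as a host locus (adjusted p = 0.18). Its 11 entries lay inside a transcript that is not spliced. The synaptonemal complex gene Sycp1 was the one meiotic locus in all 4 libraries, with 14 and 10 reads treated and 8 and 20 untreated. Its share was 0.00531% and 0.00178% treated against 0.0368% and 0.0658% untreated, which did not pass the test over all loci (adjusted p = 0.068) and was called lower among the loci in all 4 libraries (log2 fold change -3.97, SE 0.66, adjusted p = 0.000598).

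More different circRNAs per host locus were listed after treatment. The mean number per locus with any was 2.65 and 3.94 treated and 1.59 and 1.78 untreated, and loci with 10 or more numbered 123 and 553 treated and 1 and 7 untreated. Glis3 had 30 and 54 treated and 11 and 13 untreated, Ptk2 (focal adhesion kinase) 28 and 47 against 4 and 7, and Vps13b 26 and 44 against 3 and 10. Loci with 5 or more listed circRNAs held 61.8% of treated reads and 16.0% of untreated reads on average. Within the circRNAs in all 4 lists that difference was 0.0645 percentage points. There each locus has the same number of circRNAs in every library, so this value cannot show a difference in listing. The numbers of circRNAs per locus rise with the number of reads, and that part was not separated from any effect of treatment.

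Chromosome X held a smaller share of junction reads after treatment, at 2.59% (2.53 to 2.65) and 2.58% (2.54 to 2.62) against 4.21% (3.95 to 4.49) and 4.22% (4.00 to 4.46) untreated. Of 22 chromosomes, 6 had a share higher in both treated libraries than in both untreated ones (27.3%) and 6 a lower one (27.3%), so chromosome X was 1 of several. Among circRNAs in all 4 lists the X share was 3.42% and 3.26% treated against 3.58% and 3.81% untreated, and the difference of means went from -1.64 to -0.36 percentage points. By type, intergenic circRNAs of chromosome X held 1.10% and 1.03% of all reads treated and 2.52% and 2.39% untreated, and exon type ones 1.29% and 1.40% treated and 1.36% and 1.66% untreated, where the groups overlapped. Within exon type reads alone the X share was 1.59% and 1.69% treated and 1.92% and 2.18% untreated, still lower in both treated libraries.

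Chromosome 17 had 4.28% and 4.23% treated and 6.67% and 5.63% untreated. Its 64 intergenic circRNAs of 100000 bases or more held 0.0402% and 0.0430% treated and 1.54% and 0.934% untreated, and within exon type reads its groups overlapped, at 4.65% and 4.51% treated and 5.00% and 4.63% untreated. Among those 64 were junctions between members of the Dynlt1 and Tmem181 families and the one across the H2 genes. Whether their reads were placed correctly between family members was not tested. Chromosome Y had 0.0910% and 0.0742% treated and 0.133% and 0.266% untreated. The mitochondrial genome had 4 listed circRNAs, with 5 and 4 reads untreated and none listed treated. Chromosomes 1, 2, 4, 10, 11 and 18 were higher in both treated libraries, with chromosome 10 at 3.37% and 3.42% treated and 2.20% and 2.68% untreated.

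**Figure D5:**
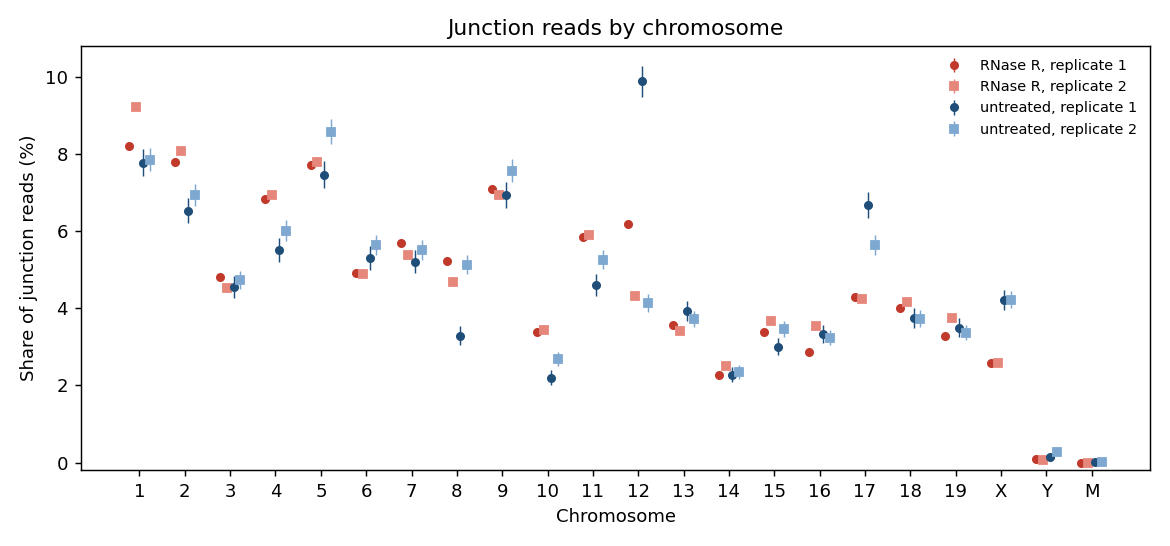
Share of each library's junction reads (%) by chromosome, 1 point per library with exact 95% binomial intervals. Chromosomes X and 17 lie lower in both treated libraries (red) than in both untreated ones (blue), and chromosome 12 stands high in replicate 1 of both groups, where the cluster of 25 junctions lies.

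Most untreated circRNAs were listed again after treatment. Of the untreated lists, 79.1% (77.5 to 80.7) and 81.0% (79.6 to 82.2) were in at least 1 treated list. The treated libraries had far more reads, so these percentages do not measure how many rings withstood the enzyme. Of untreated list 1, 68.7% and 77.6% were in treated lists 1 and 2, and 52.6% in untreated list 2. Of untreated list 2, it was 68.7% and 79.65%, and 38.2% in untreated list 1. The share in at least 1 treated list was higher for entries with more reads, at 66.8% and 67.5% for 1 or 2 reads and 91.0% and 92.4% for 20 or more. It was 88.2% and 89.1% for exon type, 59.5% and 65.5% for intron type and 44.9% and 43.5% for intergenic circRNAs. For matched rings of 300 to under 400 bases it was 96.1% and 95.3%, and for those of 2000 bases or more 50.8% and 60.4%. Spans under 500 bases were listed again in 37.4% and 57.2% of cases, and spans of 100000 bases or more in 36.2% and 30.5%. In the other direction, 24.8% and 14.2% of the treated lists were in at least 1 untreated list, and these held 70.3% and 66.5% of the treated reads.

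Ranks held best between the treated libraries, while the untreated pair stood little above the pairs across treatment. Among circRNAs in all 4 lists, Spearman's rho of the reads was 0.92 between the treated libraries and 0.64 between the untreated ones, and 0.56 to 0.63 between a treated and an untreated library. The untreated libraries have far fewer reads, which bears on each rho that includes one. Of the 10 circRNAs with most reads, 6 were shared by the treated libraries, 5 by the untreated ones and 2 to 5 across treatment. Those 10 held 6.93% and 6.45% of treated and 6.74% and 7.97% of untreated reads, where the groups overlapped. The number of circRNAs that made up 50% of the reads was 553 and 669 treated and 261 and 339 untreated.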

How the data were processed

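For the 4 SSC libraries the authors deposited lists in the layout of CIRI, which give each circRNA's type and a count of the reads over its back-splice, per the file headers. For CIRI, the version, listing minimum and annotation are not given in the sources used here. Tools named in the submitters' processing notes are BWA, TopHat2 2.0.6 and Cuffdiff, with build mm9. Host loci (mm9) came from the locus column of 1 file of gene levels that the authors deposited as FPKM, per the file headers, for other germ cells of the series. Those FPKM values are not reported. A host is the single locus that contains the whole circRNA: 26208 circRNAs had 1, 124 several and 3311 none.

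The test was the quasi-likelihood test of edgeR 4.0.16 in R 4.3.3 (TMM factors, no replicate block, 2 residual degrees of freedom) for features in at least 2 of the 4 lists, unlisted ones entered as 0, with a call at 0.05 after Benjamini-Hochberg adjustment. DESeq2 1.42.0 was an alternative. The fit was tested on simulated counts of fixed spread without a listing minimum, so that test does not bear on calls of unlisted entries. Spliced lengths came from matching spans to exon pairs of GENCODE M21 (GRCm38). No coordinate was converted, and among genes with several matches 99.64% of circRNAs lay at 1 constant distance between the builds. Shares, exact intervals and expected counts at equal depth were computed in scipy 1.17.1, pandas 2.3.3 and numpy 2.4.6 under Python 3.11.15, and drawn in matplotlib 3.10.9. Library depth ranged from 21754 to 560991 junction reads.

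Named circRNAs were the 5 with most reads in each library, the 10 with the highest mean share among those in all 4 lists, the 5 called rises and 5 called falls of smallest p and the 2 leading ones of each type, and the text describes those that show a change or a rank. Named hosts were the 10 with the highest mean share, the 5 called rises and falls of smallest p, the 5 with most treated circRNAs and up to 4 of each list, of which the text gives a selection. The results of 1 list of host loci are not reported here. The comparison and the lists were chosen with earlier results of these data known. Spliced length was added as a measure after the data were seen. Alternatives were another tool, other scalings, filters on low counts, merged ends, a replicate block and leaving out each library.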

Additional observations from a re-analysis of the deposited data

How the results depend on the processing

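Few junction reads in the untreated libraries limit what can be called, and unlisted circRNAs have no measured value. The cause of each shift given here was not tested unless stated. DESeq2 called 18 circRNAs higher, and 56 host loci lower. Without TMM factors 292 circRNAs and 62 loci were lower. With every listed feature tested, 171 circRNAs were higher and 385 lower, and 57 loci higher and 66 lower. Features in all 4 libraries gave 26 circRNAs higher, and 19 loci higher and 64 lower. TMM factors from those features, chosen after seeing the data, gave 213 circRNAs lower, and 42 loci higher and 79 lower. Leaving out each library in turn gave 9 to 319 circRNAs higher and 59 to 143 lower, and 3 to 156 loci higher and 23 to 65 lower, with the lone library of a group assumed to vary like the other group.

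With a replicate block, 82 circRNAs were called higher and 51 lower, and 35 loci higher and 32 lower. The numbers of the 2 pairs correlated at 0.197 over circRNAs and 0.101 over loci in their deviations from the group means, which does not show that a number marks 1 sample, so the libraries were taken to share a number alone, although the chromosome 12 cluster was high in replicate 1 and low in replicate 2 of both groups. Of the 33 calls of named circRNAs and loci, 32 remained with the block and 25 with DESeq2, and between 15 and 20 of 27 that could be tested remained with 1 library left out. The fold change of the circRNA across Ddx19a and Ddx19b, -5.45 in log2, lay between -6.45 and 7.68 with 1 library left out, reversed without untreated replicate 2. That of Tulp4, whose untreated reads are mainly intron type, became 7.32 with exon type circRNAs only and was then not called.

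Differences of shares (treated minus untreated, percentage points) changed mainly when restricted to circRNAs in all 4 lists, which leaves out those that 1 group lacks. There the exon type difference was 1.67, the intron type -0.76 (reversed), the intergenic -0.92, that of spans of 1000 to under 10000 bases 3.04, that of chromosome X -0.36, that of the 10 most-read circRNAs 2.09 and that of loci with 5 or more circRNAs 0.0645. By number of listed circRNAs, the exon type difference was -0.32 (reversed), the intron type 6.06, chromosome X -1.10, rings of 1000 bases or more -6.53 and rings under 400 bases 4.58. With at least 5 reads in the library, the intron type difference was 1.38, chromosome X -1.88 and the 10 most-read circRNAs -2.02. Chromosome X came to -1.66 without each library's most-read circRNA, -1.75 without the chromosome 12 cluster and -0.41 within exon type reads, and spans of 1000 to under 10000 bases came to 7.81 without the cluster. The last 3 were chosen after seeing the data. Of the untreated lists, 88.1% were listed again at 5 or more reads, against 80.0% of all entries and 68.7% to 81.0% with 1 library left out. The differences of rings of 1000 bases or more and under 400 bases kept their sign under all 8 alternatives run for each.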
